A study of Bos taurus with 6 samples.

Results

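Genes of mitochondrial protein import, mitochondrial dynamics and mitochondrial transport were examined in back muscle (the longissimus dorsi) of Japanese Black and Holstein steers. A gene was a member if its symbol in the platform annotation began with TOMM, TIMM or CHCHD, or was 1 of 13 symbols of fusion, fission, transport, prohibitin and outer membrane assembly genes. Only probe sets with exactly 1 gene symbol were used, and each gene was represented by its brightest probe set. This gave 35 genes, out of 9155 named genes on the array, with 44 probe sets in all. MFN1, TRAK1, PHB and PHB2 had no such probe set. The 35 comprised 7 TOMM genes, 11 TIMM genes, 8 CHCHD genes, 5 genes of fusion and fission (MFN2, OPA1, DNM1L, FIS1 and MFF), 3 transport genes (RHOT1, RHOT2 and TRAK2) and SAMM50.

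Total RNA from 3 Japanese Black and 3 Holstein steers was hybridised to Affymetrix arrays, 1 per animal. All 6 were male cattle, and all had been given the same kind of energy-rich feed, so no effect of the feed could be measured. Holstein is a dairy breed, and Japanese Black is raised for its marbled beef. The age of the animals is not given in the sources used here, and the numbers 1 to 3 within a breed only name the animals. The labels give each sample a title of its own, and p-values set the breed difference against the spread between these samples within a breed. The deposited values are linear signals in intensity units, whose size depends on the probe set, so levels are compared between animals and not between genes. Each difference subtracts the Holstein mean from the Japanese Black mean after adding 16 to the signals and taking log2, so a positive value means higher in Japanese Black. The added 16 makes the change of a dim probe set look smaller than it is.

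Most mitochondrial proteins are made in the cytosol and imported. The TOM complex of the outer membrane takes them in, the TIM23 complex passes those with a presequence into the matrix, and the TIM22 complex, fed by small TIM chaperones of the intermembrane space, inserts carriers into the inner membrane. CHCHD proteins carry paired cysteine motifs and many of them fold in the intermembrane space through CHCHD4. Mitochondria also fuse through MFN1, MFN2 and OPA1, divide through DNM1L and its outer membrane partners, and travel along microtubules through Miro GTPases (RHOT1 and RHOT2) and TRAK adaptors that bind kinesin. In muscle fibres, which depend on a dense mitochondrial network, these processes set how the network is built and renewed.

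The animals differed in ways other than breed. Japanese Black 3 had an upper quartile signal of 205, and the other animals had 172 to 181. The mean log2 of 14 hybridisation control probe sets was 10.4 in Holstein 3 and 9.69 to 9.95 in the other animals. The ratio of the 3′ to the 5′ actin control, a sign of RNA integrity, was 1.11 to 1.14 in Japanese Black and 1.003 to 1.07 in Holstein, so it separated the breeds. The same ratio of the GAPD control overlapped, at 0.858 to 0.928 in Japanese Black and 0.796 to 0.884 in Holstein. Muscle fibre markers were bright in every animal, with summed signals of 8 genes of 99105 to 107142 in Japanese Black and 103076 to 104000 in Holstein. Adipocyte markers (7 of 9 measured) summed to 3281 and 3419 in Japanese Black 1 and 2, to 13340 in Japanese Black 3, and to 6666, 10404 and 2604 in Holstein 1 to 3. Smooth muscle markers (6 of 6) were highest in the same 2 animals, with 14859 in Japanese Black 3 and 10706 in Holstein 2 against 4615 to 6379 in the other animals. Endothelial markers (8 of 9) summed to 1981 to 3013 in Japanese Black and 2781 to 3488 in Holstein, and fibroblast markers (7 of 7) to 6753 to 11759 and 8786 to 10082. These sums follow the brightest genes. Gene by gene, 7 of 8 endothelial and 5 of 7 fibroblast markers had a negative log2 difference, with medians of -0.30 and -0.29. The breeds did not overlap for 2 of the 8 endothelial markers (EGFL7 at -0.61 and KDR at -0.27), 25% against 19.8% of all probe sets. Leukocyte markers (7 of 8) summed to 408 to 584 in Japanese Black and 430 to 681 in Holstein, with CD79A of B cells between 3.83 and 7.47 in all animals. Erythrocyte markers (6 of 6) summed to 3707 to 4942 and 3353 to 4069, most of it GYPC, with SLC4A1 listed at 0 in Japanese Black 1 and 2. The log2 difference of GYPC was 0.30. The other 4 of the 5 tested had the opposite sign: HBB (-0.63), ALAS2 (-0.24), HBA (-0.22) and AHSP (-0.22). Schwann cell markers (3 of 6) summed to 1483 to 2863 and 1027 to 1484, most of it S100B. The log2 difference of S100B was 0.91, and those of SOX10 (-0.30) and MBP (-0.19) had the opposite sign. In whole muscle, fewer cells of a type and less RNA per cell cannot be told apart.

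Among the transport genes, TRAK2 had the widest breed difference of the 35 members. TRAK2, an adaptor that couples mitochondria to kinesin motors, read 79.8, 82.2 and 50.6 in Japanese Black 1 to 3 and 15.1, 3.72 and 16.2 in Holstein 1 to 3. All Japanese Black signals lay above all Holstein signals, and the Holstein signals were dim. The log2 difference was 1.66 (SE 0.24, 95% interval 1.12 to 2.20), which is 3.16-fold on that scale, and limma's adjusted p over all probe sets was 0.107, above the threshold of 0.05. Adding 64 in place of 16 gave a difference of 0.83, and adding 1 gave 2.68. With array weights it was 1.81 and passed (adjusted p 0.0425), and over the other alternatives the adjusted p ran from 0.0940 to 0.385.

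RHOT1, a Miro GTPase that anchors the TRAK adaptors to the outer membrane, read 426, 364 and 415 in Japanese Black and 317, 255 and 258 in Holstein. There was no overlap here either, and the log2 difference was 0.52 (SE 0.16, 95% interval 0.14 to 0.89, adjusted p 0.325). RHOT2, the other Miro GTPase, read 3054, 2839 and 3708 in Japanese Black against 3362, 3809 and 3669 in Holstein. Its breeds overlapped because Japanese Black 3 was second highest of all animals, and the log2 difference was -0.18 (SE 0.14, 95% interval -0.49 to 0.13), or -0.10 without Japanese Black 2 and -0.29 without Japanese Black 3. A second, dimmer RHOT2 probe set had a difference of -0.03. The Miro genes therefore had differences of opposite sign, neither of which passed, and whether they differ from each other was not tested. With each animal left out in turn, the RHOT1 difference stayed between 0.46 and 0.61 and the TRAK2 difference between 1.43 and 1.84.

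Fusion and fission genes had 4 of 5 members with a positive difference and a median of 0.34. OPA1, the dynamin-related GTPase that fuses the inner membrane and shapes the cristae, read 473, 502 and 574 in Japanese Black and 365, 465 and 248 in Holstein. There was no overlap, though Japanese Black 1 and Holstein 2 lay side by side, and the Holstein animals spread widely. The log2 difference was 0.54 (SE 0.23, 95% interval 0.03 to 1.06, adjusted p 0.386), and it was 0.31 without Holstein 3. MFF, an outer membrane receptor for the fission GTPase, read 443, 388 and 574 against 335, 393 and 311. Its breeds overlapped by a margin of a few units, between Japanese Black 2 and Holstein 2. The difference was 0.41 (SE 0.19) at this probe set, or 0.26 without Japanese Black 3, and 0.07 at a dimmer probe set.

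DNM1L, the fission GTPase itself, read 192, 174 and 195 in Japanese Black and 185, 157 and 102 in Holstein. Holstein 3 was far below the other 5 animals, and the log2 difference of 0.34 (SE 0.22) became 0.12 without it. MFN2, a GTPase of outer membrane fusion, read 1876, 1788 and 2157 against 1757, 1842 and 1626, with a difference of 0.15 (SE 0.13), or 0.07 without Japanese Black 3. FIS1, a small outer membrane fission protein, read 542, 605 and 461 against 481, 561 and 634, with a difference of -0.06 (SE 0.17). FIS1 was highest in Holstein 3, where 4 other genes of this group were lowest. The median of the group was 0.12 without Holstein 3 and 0.21 with array weights.

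All 7 TOMM genes had a positive log2 difference, with a median of 0.18 and a range of 0.04 to 0.38, and 0 of 7 passed. TOMM70, the receptor that takes carriers and other chaperone-bound precursors, read 1084, 1075 and 1170.2 in Japanese Black and 966, 968 and 649.8 in Holstein. It was the TOMM gene whose breeds did not overlap, with a difference of 0.38 (SE 0.18, 95% interval -0.03 to 0.80, adjusted p 0.424). Holstein 3 was clearly the lowest animal, and without it the difference was 0.19. At the second TOMM70 probe set the difference was 0.30, and the breeds were only just apart, with Japanese Black 1 at 376.0 and Holstein 2 at 372.7. TOMM40, the channel of the complex, read 136, 154 and 177 against 122, 137 and 97.0. Holstein 2 and Japanese Black 1 were almost level, and the difference was 0.35 (SE 0.18), or 0.23 without Holstein 3.

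TOMM7 and TOMM5 are small subunits around the channel. TOMM7 read 3077, 3356 and 3473 in Japanese Black and 3537, 3207 and 2081 in Holstein, with a difference of 0.20 (SE 0.19). TOMM5 read 78.2, 71.5 and 103 against 86.4, 78.5 and 53.9, with a difference of 0.18 (SE 0.20). In both, Holstein 3 was the lowest animal and Holstein 1 lay within or above the Japanese Black signals. The TOMM5 difference ran from 0.01 when Holstein 3 was left out, and 0.05 for Japanese Black 3, up to 0.27 for Japanese Black 2 and 0.29 for Holstein 1. TOMM22, a central receptor (0.08), TOMM6, another small subunit (0.04), and TOMM34, a cytosolic co-chaperone (0.13), had small differences with overlapping breeds. TOMM34 became 0.26 without Japanese Black 1 and 0.04 without Japanese Black 3. The median of the TOMM genes was 0.06 without Holstein 3, 0.06 without Japanese Black 3, 0.29 without Holstein 1 and 0.07 with array weights. TOMM7 became 0.35 without Holstein 1 and turned to -0.03 without Holstein 3, and TOMM6 to -0.02 after quantile normalization, so the common sign was not kept under every alternative.

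TIMM genes had no common direction, with 5 positive and 6 negative differences and a median of -0.04. Among the small TIM chaperones, TIMM10, which forms a chaperone ring with TIMM9, read 253, 227 and 265 in Japanese Black and 331, 364 and 465 in Holstein. All Holstein signals lay above the Japanese Black ones, and Holstein 3 was the highest. The difference of -0.60 (SE 0.18, 95% interval -1.0005 to -0.19, adjusted p 0.319) was the most negative of the 35 genes, and it was -0.46 without Holstein 3. TIMM9, its partner, read 205, 217 and 264 against 276, 189.9 and 166, with a difference of 0.13 (SE 0.21). TIMM9 was lowest in Holstein 3 and highest in Holstein 1, so the partners did not follow each other over the animals. With 1 animal left out, the TIMM9 difference ran from -0.01 without Holstein 3 to 0.33 without Holstein 1.

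TIMM13 and TIMM8A form a second chaperone pair. TIMM13 had a difference of 0.31 (SE 0.17) and TIMM8A one of 0.27 (SE 0.21), both with overlapping breeds. TIMM13 became 0.47 without Holstein 2, and TIMM8A 0.10 without Holstein 3 and 0.45 without Holstein 1. TIMM8B, a relative of TIMM8A, read 1786, 1851 and 1611 in Japanese Black and 2016, 1975 and 1946 in Holstein. The Japanese Black signals were all lower, by a small margin, and the difference was -0.18 (SE 0.13, adjusted p 0.555). TIMM8A and TIMM8B thus had estimates of opposite sign, and their difference was not tested.

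TIMM22, the channel of the carrier insertion complex, read 150.0, 154 and 161 in Japanese Black and 190.1, 174 and 212 in Holstein. The Japanese Black animals lay close together below the Holstein animals. The difference was -0.28 (SE 0.16, 95% interval -0.64 to 0.08, adjusted p 0.477). At the second TIMM22 probe set it was -0.17, and the breeds were only just apart, with Japanese Black 3 at 142.8 and Holstein 2 at 143.9. In the TIM23 complex, TIMM23, the channel, read 2288, 2259.9 and 2449 against 2250.1, 2659 and 2283, with a difference of -0.04 (SE 0.13). TIMM17B, its channel partner, had a difference of 0.05 (SE 0.14). These core subunits had intervals of -0.32 to 0.25 and -0.26 to 0.36, which exclude a 2-fold difference in either direction.

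TIMM21, a regulatory subunit of that complex, read 499.8, 428 and 558 in Japanese Black and 375, 388 and 394 in Holstein. The Holstein animals were nearly equal and all below the Japanese Black animals, with a difference of 0.34 (SE 0.16, 95% interval -0.02 to 0.70, adjusted p 0.418). TIMM50, the receptor that meets the presequence, read 337, 326 and 383 against 424, 370.0 and 529.6. It overlapped through Japanese Black 3 and Holstein 2, and its difference was -0.31 (SE 0.18), or -0.18 without Holstein 3. TIMM44, which tethers the import motor to the channel, had a difference of -0.17 (SE 0.17), which became -0.07 without Japanese Black 1 and -0.11 without Holstein 3.

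CHCHD genes had 3 positive and 5 negative differences and a median of -0.05. CHCHD5, a twin cysteine protein of the intermembrane space, read 757, 706 and 752 in Japanese Black and 895, 995 and 905 in Holstein. The breeds were well apart, with a difference of -0.33 (SE 0.14, 95% interval -0.64 to -0.01, adjusted p 0.388). Its other probe sets had differences of -0.28, where the breeds did not overlap, and -0.22, where they did. All 3 probe sets of this gene thus had the same sign. CHCHD1, a component of the mitochondrial ribosome, read 1675, 1568 and 1520.4 against 1399.8, 1390.4 and 1438, without overlap and with a difference of 0.17 (SE 0.13, adjusted p 0.578).

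CHCHD6 and CHCHD3 belong to the MICOS complex, which holds the cristae junctions. CHCHD6 was dim, at 13.8, 21.3 and 13.0 in Japanese Black and 23.1, 22.1 and 29.2 in Holstein. The breeds did not overlap, but Japanese Black 2 and Holstein 2 were within a unit of each other. The difference of -0.36 (SE 0.16, 95% interval -0.73 to 0.02, adjusted p 0.411) became -0.15 when 64 was added to the signals and -0.62 when 1 was added. CHCHD3 had a difference of -0.10 (SE 0.14), or -0.02 without Japanese Black 2 and -0.20 without Japanese Black 3. CHCHD2 and CHCHD10, related proteins of the intermembrane space, had differences of 0.06 (SE 0.12) and -0.0035 (SE 0.13). CHCHD2 read 4826, 4916 and 6017 against 4934, 5177 and 4912, so that all animals but Japanese Black 3 were nearly level. CHCHD4, the oxidoreductase of the import pathway for cysteine-rich proteins, had a difference of 0.10 (SE 0.17), or 0.02 without Japanese Black 2 and 0.23 without Japanese Black 1, and CHCHD7 one of -0.10 (SE 0.13), against 0.13 at a dimmer CHCHD7 probe set.

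SAMM50, the core of the machinery that assembles barrel proteins in the outer membrane, read 702, 542 and 726 in Japanese Black and 534, 623 and 755 in Holstein. The animals were mixed, and the difference was 0.04 (SE 0.19, 95% interval -0.38 to 0.47).

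**Figure D1:**
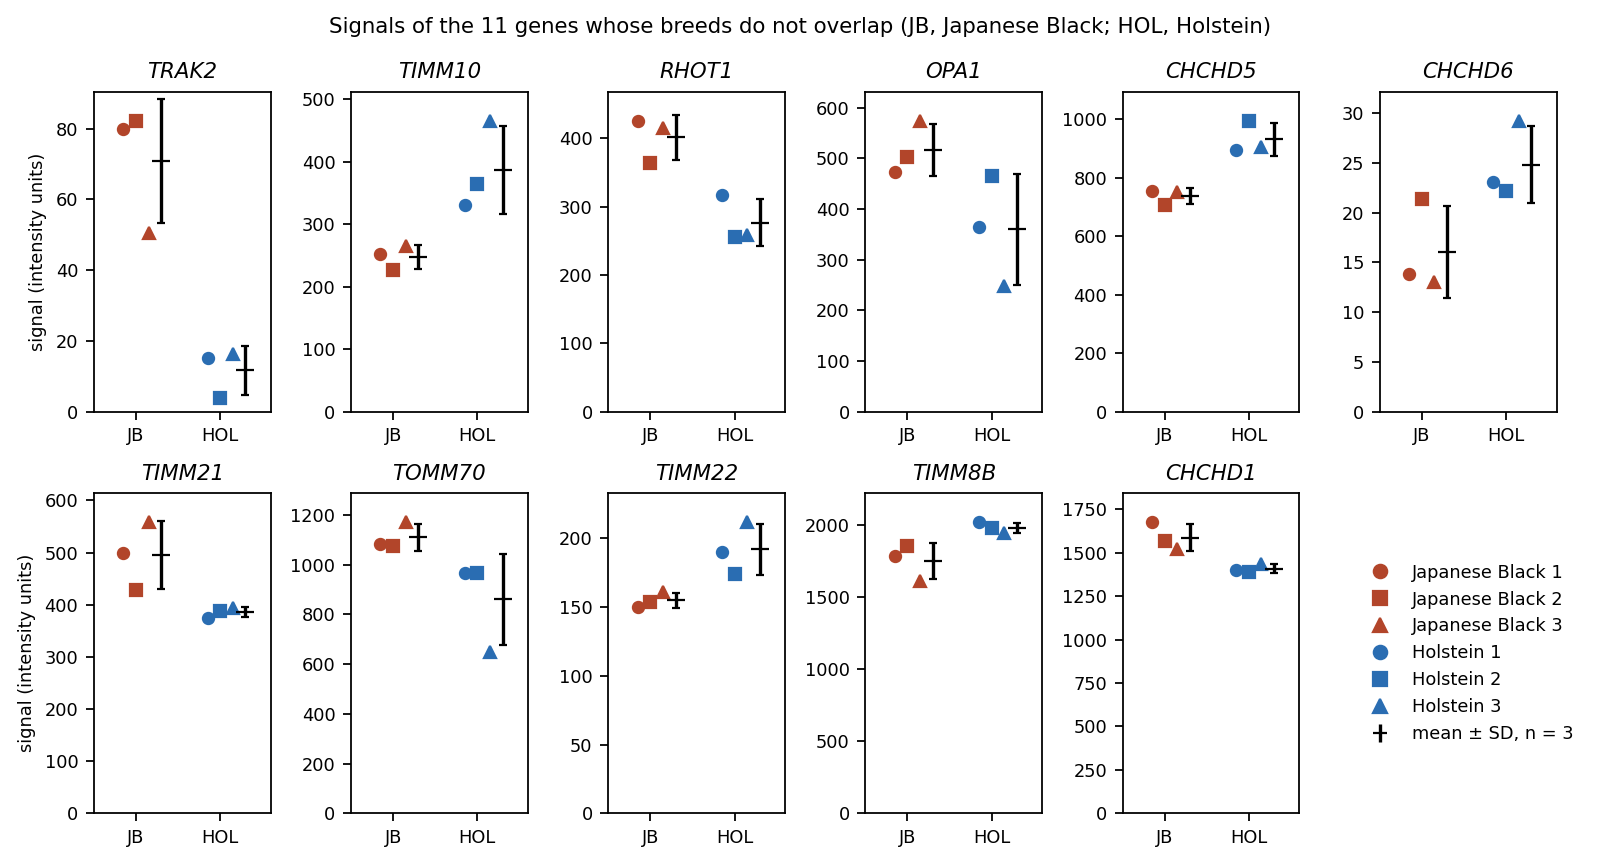
Signals in intensity units of the 11 genes whose breeds did not overlap, 1 panel per gene with its own axis from 0, with a symbol per animal and the mean ± SD of 3 animals beside them. TRAK2 lay between 50.6 and 82.2 in Japanese Black and at or below 16.2 in Holstein, while the margin was small for CHCHD6, OPA1 and TIMM8B.

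Of all 35 genes, 22 had a positive and 13 a negative difference, with a median of 0.08. Over all 18012 probe sets tested the median was 0.01. With limma's test, adjusted over all probe sets, 0 of the 35 members passed, and 3 of 18012 probe sets (0.0167%) did. At an unadjusted p under 0.05 there were 5 of 35 members, 14.3%, against 12.6% of all probe sets. These were TRAK2, TIMM10, RHOT1, OPA1 and CHCHD5, which are also the members whose 95% interval left out 0. A plain t-test gave 0 of 35 after adjustment and 8 of 35 before it, 22.9%, against 10.03% of all probe sets. With limma at the unadjusted threshold, median centring gave 22.9% of members against 13.3% of all probe sets. Quantile normalization gave 11.4% against 12.6%, array weights 11.4% against 12.5%, and leaving out Holstein 1 gave 8.57% against 11.6%. The members' share thus lay above that of all probe sets in some alternatives and below it in others.

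The breeds did not overlap for 11 of 35 members, 31.4%, against 19.8% of all probe sets. Japanese Black was the higher breed for 6 of them (TRAK2, RHOT1, OPA1, TIMM21, TOMM70 and CHCHD1), where 11.0% of all probe sets had that pattern. It was the lower breed for 5 (TIMM10, CHCHD5, CHCHD6, TIMM22 and TIMM8B), where 8.84% of all probe sets did. The count was 18 without Holstein 2, where 33.9% of all probe sets did not overlap, and 12 without Holstein 3, where 25.3% did not. The median of all members was 0.12 without Japanese Black 1, 0.04 without Japanese Black 3 and 0.05 without Holstein 3. Of the 35 intervals, 32 lay between -1 and 1, so differences of 2-fold or more on this scale were outside them. The exceptions were TRAK2, OPA1 and TIMM10.

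**Figure D2:**
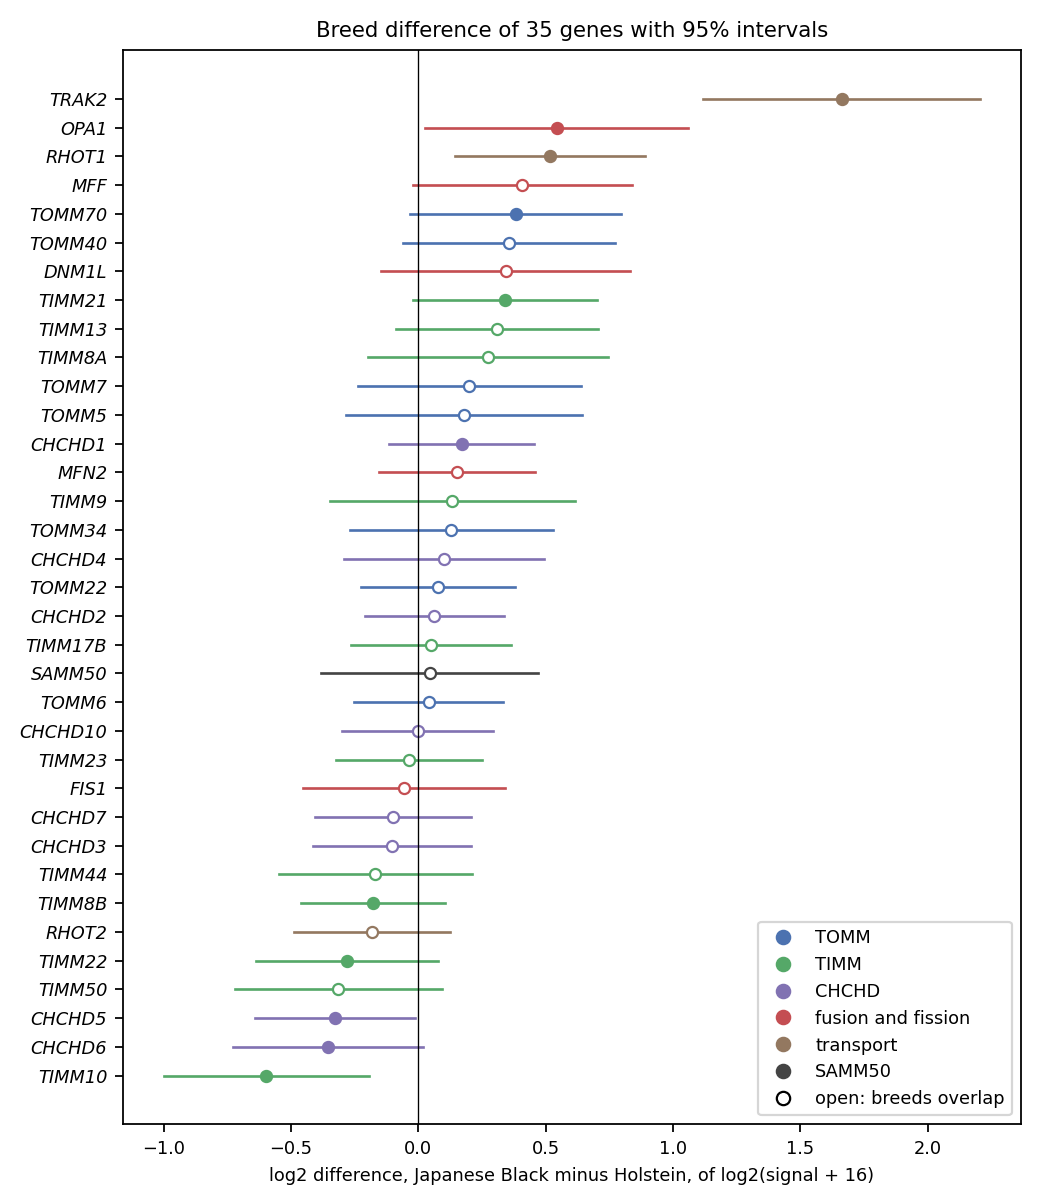
The log2 difference, Japanese Black minus Holstein, of each of the 35 genes on the log2(signal + 16) scale, with limma's 95% interval as a line and the gene group as colour; filled points are genes whose breeds did not overlap. TRAK2 at 1.66 stood alone at one end and TIMM10 at -0.60 at the other, and 30 of the 35 intervals held 0.

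The spread over animals was small for most members. The highest animal was up to 1.5 times the lowest for 21 genes, between 1.5 and 2 times for 10 and above 2 times for 4 genes. Some of this spread lay in single animals. Holstein 3 was the lowest of the 6 animals for 11 of 35 members, 31.4%, against 24.6% of 8050 named genes. Of these 11, 8 were among the 12 TOMM, fusion and fission genes. Japanese Black 3 was the highest animal for 14 members, 40.0%, against 31.95% of the named genes.

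The groups did not share one pattern over the animals. The mean of the TOMM genes in Holstein 3 was 0.32 below the mean of all animals and that of the fusion and fission genes 0.33 below it. In the same animal the TIMM and CHCHD genes were 0.02 and 0.03 above it, and all named genes 0.01 below it. The transport genes were 0.40, 0.30 and 0.30 above the mean in the Japanese Black animals and 0.23, 0.49 and 0.27 below it in the Holstein animals. The breeds did not overlap in the mean level of the transport genes or of the fusion and fission genes, where Holstein 2 (0.02) lay just under Japanese Black 2 (0.08), and they overlapped in the TOMM, TIMM and CHCHD genes. The separation of the transport genes rested on TRAK2: the mean of RHOT1 and RHOT2 alone, computed after the data were seen, was -0.06 in Japanese Black 2 and -0.04 in Holstein 1, so the breeds overlapped without it. Holstein 3 also had the brightest hybridisation controls and the lowest actin ratio of the 6 arrays, and Japanese Black 3 the highest upper quartile, adipocyte and smooth muscle markers. The part of these measures in the members' values was not tested.

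**Figure D3:**
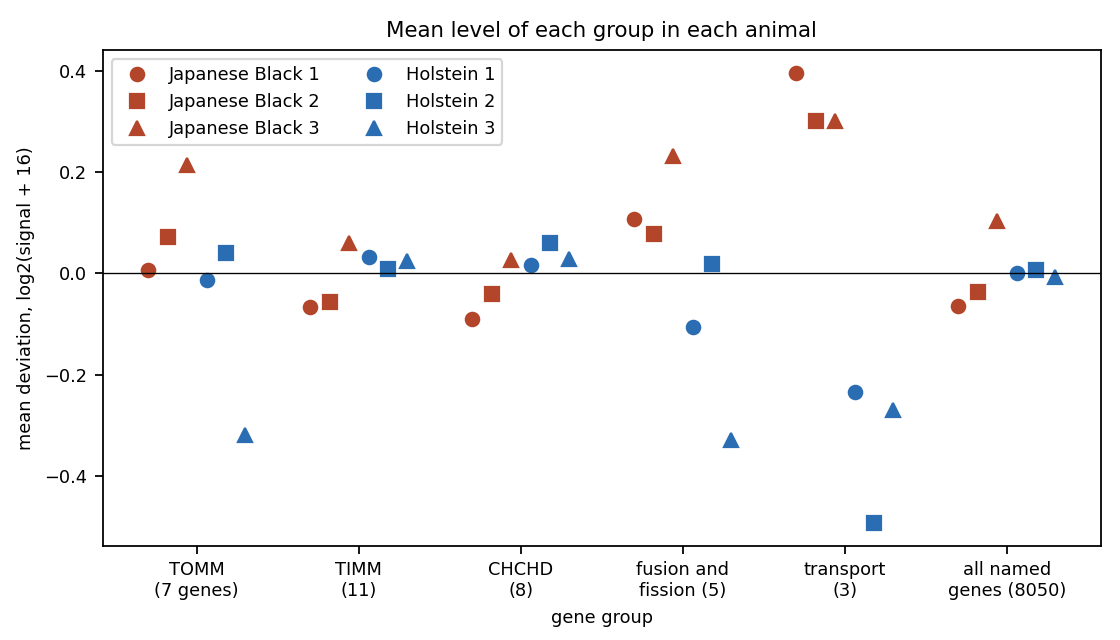
Mean deviation of 5 groups of members and of 8050 named genes from the mean of the 6 animals, in log2(signal + 16) units, with a symbol per animal. Holstein 3 lies 0.32 and 0.33 below the mean for the TOMM and the fusion and fission genes, and the transport genes separate the breeds through TRAK2, without which their means overlap.

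**Figure D4:**
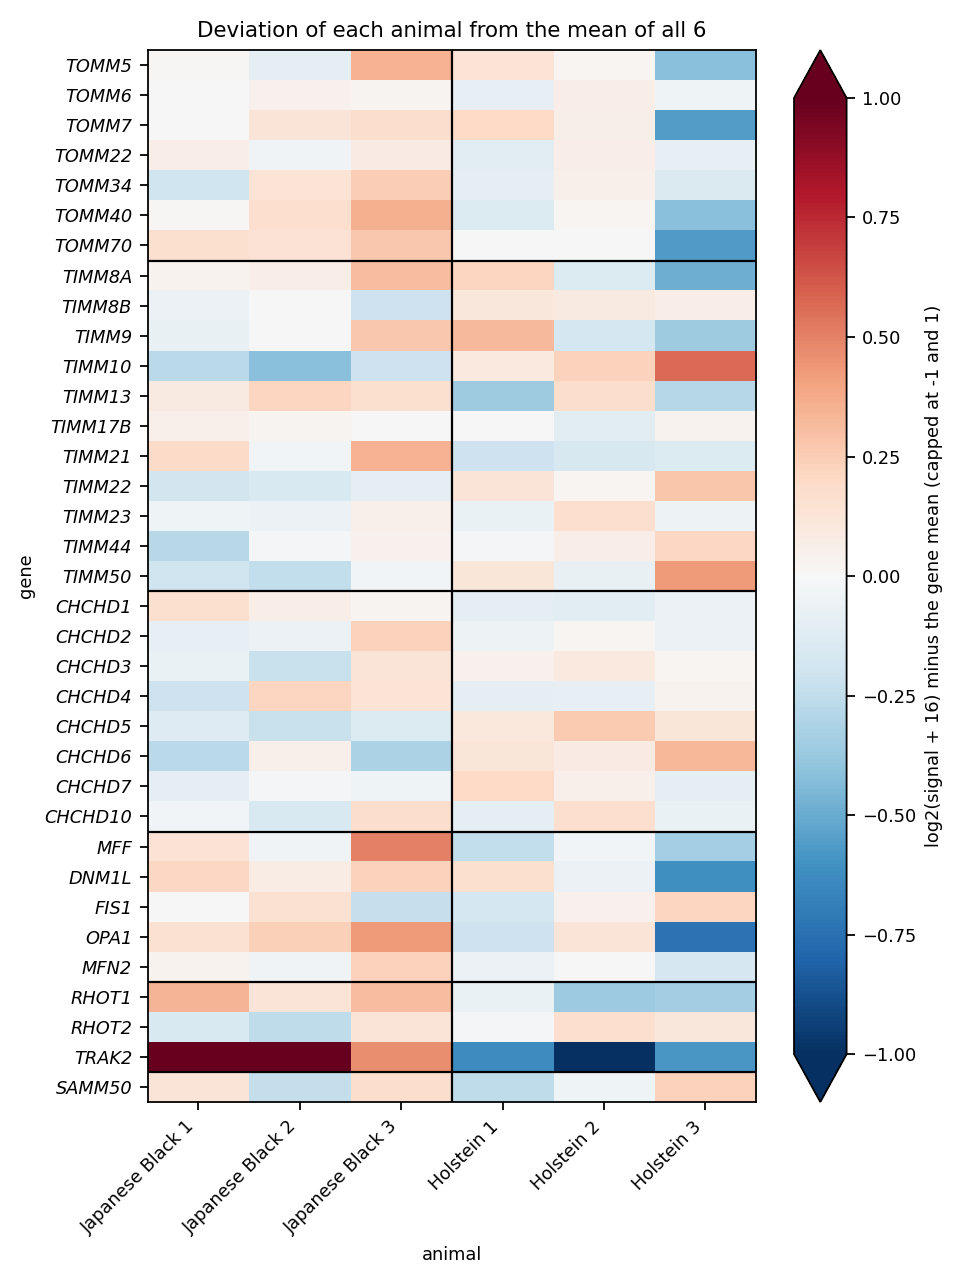
Deviation of each animal from the gene's mean over the 6 animals, in log2(signal + 16) units, for the 35 genes in rows, with lines between gene groups and between breeds and colours capped at -1 and 1. TRAK2 has the strongest contrast between the breeds, and OPA1, DNM1L, TOMM7 and TOMM70 are at their lowest (blue) in Holstein 3, where TIMM10 is at its highest (red).

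Other genes of these pathways were read from 6 lists, in which 0 genes passed the adjusted threshold. Among genes of mitochondrial movement (13 of 21 measured, 5 positive and 8 negative, median -0.01), KIF5B, the kinesin heavy chain that carries mitochondria, read 2349, 2368 and 2707 in Japanese Black and 1649, 1876 and 932 in Holstein. The breeds did not overlap, with a difference of 0.79 (SE 0.24, adjusted p 0.321). KLC1, a kinesin light chain, read 496, 598 and 526 against 380.0, 392 and 355, also without overlap, with a difference of 0.50 (SE 0.15, adjusted p 0.321). These were the only genes of that list without overlap, 15.4% against 19.8% of all probe sets. Both had the sign of TRAK2 and RHOT1, whereas RHOT2 and 8 of the 13 genes of the list had negative differences. DYNLL1, a dynein light chain (0.30), and ARMCX3, an outer membrane protein (-0.43), had overlapping breeds.

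In the remaining import and folding machinery (16 of 25 measured, 9 positive and 7 negative, median 0.08), 5 genes did not overlap, 31.2% against 19.8% of all probe sets. IMMP1L, a subunit of the inner membrane peptidase, had a difference of 0.75 (SE 0.21, adjusted p 0.313), with 210.5, 230.0 and 263 in Japanese Black against 113, 184 and 111 in Holstein. PMPCA, a subunit of the peptidase that removes presequences, had a difference of -0.51 (SE 0.19, adjusted p 0.349), with 148, 181 and 195 against 264, 213 and 295. IMMP1L and PMPCA therefore had estimates of opposite sign, neither of which passed, and their difference was not tested. IMMP2L, also of the inner membrane peptidase, had a difference of 0.13 (SE 0.18) with overlapping breeds. MTCH2, an outer membrane protein, had a difference of 0.30 and MTX1, a partner of SAMM50, one of -0.26.

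Of the other genes of dynamics and cristae (18 of 29 measured, 13 positive and 5 negative, median 0.10), GDAP1, a fission factor, read 156, 143 and 204 in Japanese Black and 90.5, 150.2 and 38.9 in Holstein, with a difference of 0.88 (SE 0.36, adjusted p 0.383). Like OPA1 it was lowest in Holstein 3. IMMT, the central MICOS subunit, had a difference of 0.29 (SE 0.16) and no overlap, opposite in sign to CHCHD3 and CHCHD6 of the same complex. APOOL (0.36), MICOS13 (0.10) and APOO (0.006), also of that complex, had positive differences with overlapping breeds. MTFR1 (-0.46) and PARL, an inner membrane protease (-0.24), had negative differences. Only PARL and IMMT of this list had breeds that did not overlap, 11.1% against 19.8% of all probe sets.

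Mitophagy genes (14 of 18 measured, 9 positive and 5 negative, median 0.07) were led by SQSTM1, an autophagy receptor, at 5149, 5046 and 4779 in Japanese Black and 6328, 5889 and 7006 in Holstein. The breeds did not overlap, with a difference of -0.36 (SE 0.11, adjusted p 0.321). TAX1BP1, another receptor, had a difference of 0.76 (SE 0.31), USP15, a deubiquitinase, 0.40 (SE 0.20) and OPTN, a further receptor, 0.30 (SE 0.16). TAX1BP1 and USP15 did not overlap either, with Japanese Black higher, and OPTN overlapped. In all, 3 of the 14 genes did not overlap, 21.4% against 19.8% of all probe sets. Holstein 3 was the highest animal for SQSTM1 and the lowest for TAX1BP1, USP15 and OPTN. Channels and genes of mitochondrial DNA (9 of 13 tested, 5 positive and 4 negative, median 0.01) included TFB2M (0.45), VDAC1 (0.22), TFB1M (0.21) and VDAC2 (-0.11), all with overlapping breeds.

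Regulators of mitochondrial biogenesis (8 of 13 measured, 5 positive and 3 negative, median 0.19) also overlapped in each case. PPARGC1A, a coactivator of mitochondrial genes, read 129, 36.4 and 158 in Japanese Black and 62.8, 33.1 and 17.6 in Holstein, with a difference of 1.11 (SE 0.46, adjusted p 0.383). Japanese Black 2 lay among the Holstein animals, whereas for TRAK2 it was the highest animal. YY1 (0.39), PPARA (0.30) and CREB1 (-0.27), transcription factors of this list, had smaller differences.

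**Figure D5:**
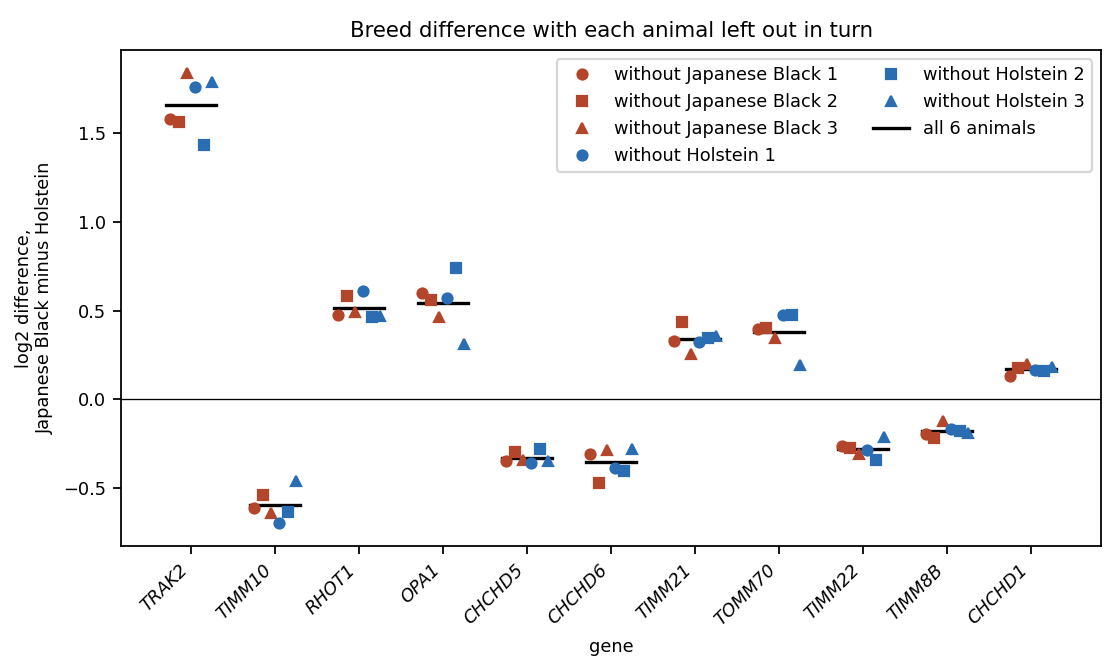
The log2 difference, Japanese Black minus Holstein, of the 11 genes whose breeds did not overlap, with all 6 animals as a black line and with each animal left out as a symbol. No point can cross 0, because a gene whose breeds do not overlap keeps its sign whichever animal is left out. TRAK2 stays between 1.43 and 1.84, and OPA1 and TOMM70 move to 0.31 and 0.19 when Holstein 3 is left out. The point nearest 0 is TIMM8B at -0.12, without Japanese Black 3.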

How the data were processed

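The submitters' processing notes name GCOS (1.1.1) and Expression Console (1.1) as software. How probes were summarised and scaled is not given in the sources used here. What the authors deposited is 1 linear intensity per probe set and array. After 112 control probe sets were left out, 24016 remained. An offset of 16 was added, log2 was taken, and the dimmest 25% were dropped, which kept all 35 members among 18012 probe sets. The comparison of breeds used R 4.3.3 and limma 3.58.1 (lmFit, eBayes with an intensity trend, two-sided, Benjamini-Hochberg over all probe sets, threshold 0.05). SE and 95% intervals come from the moderated variance. The series design names a paired test, but the labels form no pairs, so the comparison was unpaired. The test was first run on simulated data with known changes.

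Gene names came from the platform annotation; 35 of 35 member identifiers were found in the RefSeq gene table (ARS-UCD2.0). No build is named for the table, so no coordinates are given. Named with all animals' values were members whose breeds did not overlap and the brightest and dimmest of each group, with further members given to complete the groups after their values were seen. From each related list up to 4 genes were named by smallest unadjusted p, only some of them with all animals' values. IMMP2L, APOOL, MICOS13 and APOO were named in addition, outside that rule. Members and lists were chosen with earlier results of these data known. The number of arrays limits the precision. Alternatives were other offsets, filters, scalings, variance models, a plain t-test, the mean of a gene's probe sets, a threshold of 0.10 and leaving out each animal. Figures were drawn with matplotlib 3.10.9.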

Additional observations from a re-analysis of the deposited data

How the results depend on the processing

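Over 16 alternative fits 25 of 35 members kept the sign of their difference, and 10 changed sign at least once. All 11 members whose breeds did not overlap kept it. For them only another scaling or the mean of a gene's probe sets could have changed the sign. Leaving out an animal or changing the offset, filter, variance model or test could not. The number of members past the adjusted threshold was 0 in every fit but the one with array weights, where it was 1 (TRAK2). The number of probe sets past it was 3, and it was 0 with an offset of 1, 0 with the dimmest 50% left out, 0 with the plain t-test, 10 with array weights, 7 at a threshold of 0.10, and 0 to 15 with 1 animal left out. Members without overlap numbered 12 to 18 of 35 with 1 animal left out, where 25.3% to 33.9% of all probe sets did not overlap. After quantile normalization they numbered 15 of 35 (42.9%), where 19.7% of all probe sets did not overlap. With the dimmest 50% left out they numbered 9 of 33 (27.3%), where 21.6% of all probe sets did not overlap. TRAK2 and CHCHD6 were not tested with the dimmest 50% left out. The median of the TIMM genes was -0.14 after quantile normalization, and that of the transport genes 0.17 without TRAK2 under the stricter filter. The causes were not tested. No paired analysis was possible because no label links an animal of one breed to one of the other. Signals near those of the dimmest probe sets limit TRAK2 in Holstein and CHCHD6.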
